A study of Mus musculus with 4 samples.

Results

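The unfolded protein and ATF4 response genes described here were 36 mouse genes chosen by symbol from the 52630 gene identifiers in the transcript table, and each symbol matched 1 gene. They fell into 22 genes of the endoplasmic reticulum (ER), namely 4 of stress sensing (the sensors and the factor XBP1), 14 chaperones and folding enzymes and 4 genes of ER-associated degradation (ERAD), and 14 genes of the ATF4 side, namely 9 of the ATF4 arm and 5 enzymes of serine and one-carbon metabolism. The libraries came from AML12, a non-tumour hepatocyte line derived from mice with a human TGF-alpha transgene, kept with 10% serum, an insulin, transferrin and selenium supplement and 0.1 µM dexamethasone. Wells received 200 µl of concentrated lentivirus with a control hairpin (shCtrl) or a hairpin against Topors (shTopors), the gene of an E3 ligase for ubiquitin and SUMO. Medium was replaced after 24 hours, cells were taken after 5 days, and rRNA-depleted total RNA of 2 libraries per group was sequenced. The sources used here do not give which hairpin each knockdown library carried, nor whether the libraries of a group were separate cultures. The p-values therefore reflect only how far libraries of a group spread, which may be technical.

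Proteins that enter the ER are folded by chaperones such as BiP, and an excess of unfolded protein is sensed by IRE1, PERK and ATF6. IRE1 splices Xbp1 mRNA, ATF6 is cut in the Golgi to release a transcription factor, and both raise chaperone and ERAD genes. PERK and other kinases phosphorylate eIF2, which slows translation and favours translation of ATF4, a factor that induces genes of amino acid supply, its own feedback and CHOP. Hepatocytes secrete large amounts of plasma protein and use these pathways in ordinary function.

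Expression was given as TPM, a transcript abundance scaled for transcript length and library total, which keeps no read depth, so the depth behind each value is unknown. Topors itself was at 21.9 and 29.2 TPM in the controls, against 4.31 and 4.65 TPM in shTopors, so both knockdown libraries went with their labels. The hepatocyte genes Krt8 and Krt18, the 2 most abundant of 11 markers, were between 1719 and 3239 TPM in every library. All 7 stellate, 6 endothelial and 7 leukocyte markers summed to between 0.0627 and 1.50 TPM per list and library, with Col1a2, Col3a1, Lrat, Cdh5, Lyve1 and Adgre1 at 0 in all 4 libraries. The 4 bile duct markers summed to 510.1 and 493 TPM in the controls, 1550.0 TPM in shTopors 1 and 452 TPM in shTopors 2, with Epcam at most 0.0975 TPM. Of these, Krt19 was at 341 and 296 TPM in the control libraries, against 1396 TPM in shTopors 1 and 345 TPM in shTopors 2. Krt7, the second of them, was at 92.6 and 106 TPM, then 127 and 64.4 TPM in shTopors 1 and 2. The third, Sox9, was below both controls in both, at 76.8 and 91.2 TPM, then 26.9 and 42.1 TPM. The 11 hepatocyte markers summed to 7789 and 9561 TPM in the controls, 8488 TPM in shTopors 1 and 6796 TPM in shTopors 2, and their members went in different directions. Most of the sum in shTopors 1 came from Krt8 and Krt18, at 3218 and 3239 TPM, each above both controls there. Trf, the third in level, was below both controls in both knockdown libraries, at 1556 and 2279 TPM, then 1182 and 1373 TPM. Of the 10 markers that were tested, 5 were above both controls and 5 below both in shTopors 1, and 2 were above and 7 below in shTopors 2. The 6 that follow were named with their values known. Alb, which encodes albumin, was 118 and 271 TPM in the controls, 4.15 TPM in shTopors 1 and 402 TPM in shTopors 2. Apoa1 ran the other way, with 12.3 and 28.4 TPM in the controls, 113 TPM in shTopors 1 and 11.5 TPM in shTopors 2, as did Serpina1a, with 35.9 and 56.6 TPM, then 80.8 and 24.98 TPM. Apoe and Ttr were below both controls in both knockdown libraries. Apoa1, Serpina1a and the transcription factor gene Hnf4a, 3 of the 10 or 30.0%, were above both controls in shTopors 1 and below both in shTopors 2. The part of these marker differences in the results below was not tested, and in bulk RNA fewer cells of a type and less RNA per cell cannot be told apart.

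All 36 genes passed the filter of a mean of at least 1 TPM, which left 13509 genes for the test of shTopors against shCtrl, made with limma on log2(TPM + 1). None of the 36 passed an adjusted p of 0.05, a threshold that 0.037% of all tested genes passed. Topors, the targeted gene, did not pass it either, with a log2 difference of -2.265 (limma adjusted p = 0.0823). A gene that did not pass was thus not shown to be unchanged. At an unadjusted p under 0.05, 6 of the 36 were lower in shTopors, where 10.7% of all genes were, and none was higher, where 3.98% were. These 6 were Dnajb9, Herpud1, Syvn1, Atf5, Ddit3 and Trib3. The groups did not overlap for 14 members on the lower side and for 2 on the higher side, which is 38.9% and 5.56% of the members against 35.2% and 14.6% of all genes. The lower share was thus near that of all genes. Across all tested genes the median log2 difference was -0.183, and differences relative to this median are called excess here.

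Each knockdown library was also set against the controls on its own. The libraries placed 14 of the 36 below both controls and 2 above both in common, and 12 on opposite sides. In shTopors 1, 16 of the 36 lay above both controls and 17 below both, where 28.9% and 53.5% of all genes did. In shTopors 2, 4 lay above both and 27 below both, where 26.1% and 50.8% of all genes did. Above both controls in shTopors 1 and below both in shTopors 2 were 11 of the 36, or 30.6%, against 9.27% of all genes. They were 6 chaperone genes (Hspa5, Hsp90b1, Hyou1, Pdia6, Dnajb11 and Creld2), the ERAD gene Edem1 and 4 enzymes (Phgdh, Psat1, Shmt2 and Mthfd2). The reverse pattern was that of 1 member, Sel1l, and of 976 of the 13509 tested genes. The shTopors libraries were each set against the same 2 controls, so their differences from these controls are not independent of each other.

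The direct comparison of the knockdown libraries does not use the controls. The level was higher in shTopors 1 than in shTopors 2 for 26 of the 36 genes, against 48.3% of all genes. It was at least 2-fold higher for 8 of the 36, or 22.2%, against 8.06% of all genes. No member was at least 2-fold higher in shTopors 2, where 1155 of the 13509 tested genes were. With 1 library on each side these counts have no replicate check. Fits without 1 knockdown library, given below for single genes, take the lone knockdown library to vary like the controls. Their p-values have no knockdown replicate behind them and describe 1 library each.

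**Figure D1:**
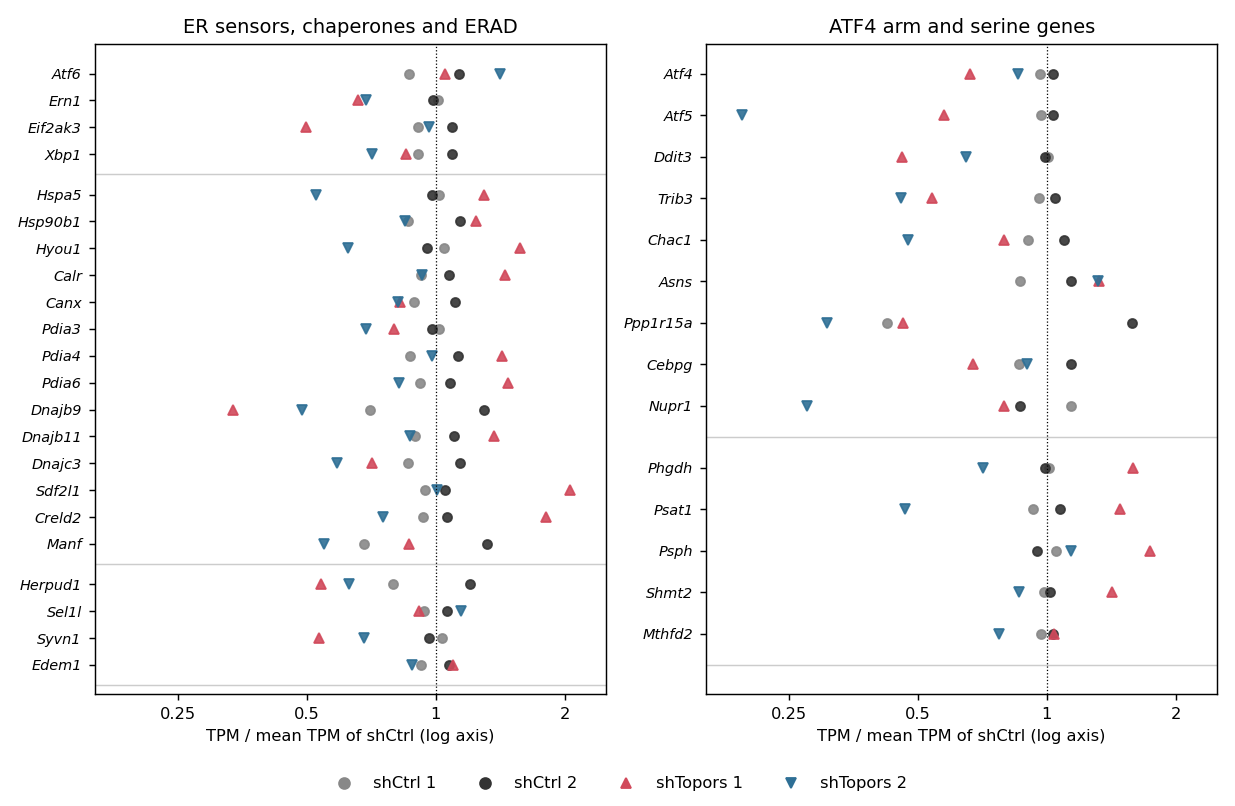
TPM of each of the 36 genes in each library, divided by the mean of the 2 shCtrl libraries (x axis, log scale), with 1 row per gene and 1 symbol per library. Upward triangles (shTopors 1) lie to the right of the controls and downward triangles (shTopors 2) to the left for genes such as Hspa5, Hyou1, Phgdh and Psat1, while for Ddit3, Trib3 and Atf5 both lie to the left.

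Most ER chaperone genes stood above the controls in shTopors 1, and most stood below them in shTopors 2. Their median log2 difference from the controls, as an excess over all genes, was 0.607 in shTopors 1 and -0.184 in shTopors 2. Of the 14, 9 were above both controls in shTopors 1 and 4 below both, where 28.9% and 53.5% of all genes were. In shTopors 2 none was above both and 11 were below both, where 26.1% and 50.8% of all genes were. Over both libraries the median excess was 0.205, and no member passed the threshold. In shTopors 1 the marker lists were mixed. Krt19 and Krt7 were above both controls and Sox9 below both, and 5 tested hepatocyte markers were above and 5 below. Their part in this result was not tested.

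The promoters are shown first because many chaperone genes share the ER stress element (ERSE), the site read by ATF6 and XBP1 with NF-Y. It was searched on both strands as CCAAT, 9 bases of any kind and then CCACG, in RefSeq promoters of build GRCm38.p6 (250 bases before to 50 after the start), which were found for 33 of the 36 genes. It was found for 7 of 12 chaperone genes and for 1 of 4 ERAD genes, against 0.119% of all 32851 promoters. Members were counted as genes with a match in any promoter and the background as single promoters, so the units differ. The sites below are from Hspa5 (chr2:34772020-34772048, plus strand), Creld2 (chr15:88819508-88819550, plus), Calr (chr8:84847063-84847105, minus), Pdia6 (chr12:17266479-17266521, plus), Canx (chr11:50325788-50325830, minus), Dnajc3 (chr14:118937815-118937857, plus) and Syvn1 (chr19:6046520-6046562, plus). The longer stretch of Hsp90b1 (chr10:86705521-86705668, minus) holds 2 such elements. Each is written 5′ to 3′ along the gene with the element in capitals, and an element on the opposite strand begins with CGTGG and ends with ATTGG. The Hspa5 site begins 65 bases before the start and lies inside the GENCODE gene model, and the others lie upstream of theirs.
Hspa5: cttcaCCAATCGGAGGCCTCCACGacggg
Creld2: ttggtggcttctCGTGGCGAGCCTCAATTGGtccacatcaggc
Calr: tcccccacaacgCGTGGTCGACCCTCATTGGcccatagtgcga
Pdia6: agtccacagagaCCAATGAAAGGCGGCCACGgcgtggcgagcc
Canx: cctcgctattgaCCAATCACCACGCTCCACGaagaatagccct
Dnajc3: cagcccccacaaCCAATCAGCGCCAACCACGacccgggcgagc
Syvn1: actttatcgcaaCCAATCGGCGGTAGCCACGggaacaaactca
Hsp90b1: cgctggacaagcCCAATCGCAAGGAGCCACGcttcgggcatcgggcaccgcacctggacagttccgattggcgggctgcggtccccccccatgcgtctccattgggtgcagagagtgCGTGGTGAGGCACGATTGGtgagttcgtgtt

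The 8 genes with an ERSE did not share 1 pattern of expression. Hspa5, Hsp90b1, Pdia6 and Creld2 were above both controls in shTopors 1 and below both in shTopors 2. Canx, Dnajc3 and Syvn1 were below both controls in both libraries. Calr was above both in shTopors 1 and between the controls in shTopors 2.

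Hspa5 (chr2:34771970-34777547 in mm10, plus strand) encodes BiP, the central ER chaperone of the HSP70 family and the gene most used as a readout of ER stress. It was at 471 and 454 TPM in the control libraries, against 599 TPM in shTopors 1 and 243 TPM in shTopors 2. The control libraries were close to each other, and the knockdown libraries lay on opposite sides of them, 2.46-fold apart. Mean TPM was 463 ± 11.8 in shCtrl and 421 ± 252 in shTopors (SD, n = 2), with a log2 difference of -0.28 (SE 0.396, limma adjusted p = 0.750). Without shTopors 1 the log2 difference was -0.92 with an adjusted p = 0.0170, and without shTopors 2 it was 0.37 and did not pass. Over all alternatives the adjusted p ranged from 0.0170 to 0.996, the upper end coming from the fit without shCtrl 2, as for the members below.

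Hyou1, an HSP70-like nucleotide exchange factor for BiP, was at 97.3 and 89.0 TPM in the control libraries, against 147 TPM in shTopors 1 and 58.0 TPM in shTopors 2. Creld2, an ER-resident disulfide isomerase, was at 47.3 and 53.8 TPM in the control libraries, against 91.4 TPM in shTopors 1 and 38.1 TPM in shTopors 2. Both had a difference of about the same size as Hspa5 between the knockdown libraries, 2.53-fold for Hyou1 and 2.40-fold for Creld2. Sdf2l1, part of a BiP complex, was at 46.5 and 51.8 TPM in shCtrl and reached 101 TPM in shTopors 1, while shTopors 2, at 49.4 TPM, lay between the controls. Its log2 difference without shTopors 2 was 1.03 (limma adjusted p = 0.0200), against 0.515 with all libraries and up to 0.996 over the alternatives. Sdf2l1 was the chaperone gene with the highest level relative to the controls in shTopors 1, at 206% of their mean.

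For the abundant lectin and HSP90 chaperones, the knockdown libraries were less than 2-fold apart. Hsp90b1, which encodes GRP94, was at 241 and 318 TPM in the control libraries, against 347 TPM in shTopors 1 and 238 TPM in shTopors 2. Calr, the gene of the glycoprotein chaperone calreticulin, was at 553 and 643 TPM in the control libraries, against 868 TPM in shTopors 1 and 555 TPM in shTopors 2. In both genes shTopors 2 was close to shCtrl 1. Canx, which encodes the membrane-bound partner calnexin, was at 430.0 and 538 TPM in the control libraries, against 400.5 and 395 TPM in shTopors 1 and 2, below both controls in both. Hsp90b1 shares exonic bases with a microRNA gene on its own strand, Gm25745, listed at a mean of 174 TPM.

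The protein disulfide isomerases divided in the same way. Pdia4 was at 328 and 426 TPM in the control libraries, against 538 TPM in shTopors 1 and 369.6 TPM in shTopors 2. Pdia6, which also dampens IRE1 signalling, was at 162 and 189 TPM in the control libraries, against 259 TPM in shTopors 1 and 144 TPM in shTopors 2. Pdia3, the isomerase that works with calnexin and calreticulin, was at 352 and 339 TPM in the control libraries, against 276 TPM in shTopors 1 and 238 TPM in shTopors 2. Pdia3 thus went with Canx rather than with the other isomerases, although its difference did not pass (adjusted p = 0.397 in limma's test).

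The J-domain cochaperones of BiP showed 3 patterns. Dnajb11 was at 44.8 and 55.3 TPM in the control libraries, against 68.5 TPM in shTopors 1 and 43.5 TPM in shTopors 2, like Hspa5. Dnajc3, which encodes p58IPK, an inhibitor of PERK, was at 50.3 and 66.4 TPM in the control libraries, against 41.4 and 34.4 TPM in shTopors 1 and 2. Dnajb9, which encodes ERdj4, a cochaperone of ERAD and repressor of IRE1, was at 15.1 and 27.9 TPM in the control libraries, against 7.22 TPM in shTopors 1 and 10.5 TPM in shTopors 2. Dnajb9 had the lowest level relative to the controls of all 14 chaperone genes in both libraries, at 33.6% and 48.8% of their mean. Its log2 difference was -1.15 (SE 0.369), and its limma adjusted p of 0.248 became 0.00559 without shTopors 2 and ranged up to 0.996 over the alternatives. Manf, a secreted ER stress factor, was at 109 and 210.3 TPM in the control libraries, against 138 TPM in shTopors 1 and 87.6 TPM in shTopors 2, and its controls differed more than those of most chaperone genes. Manf shares exonic bases with Dcaf1 on the opposite strand and Rbm15b on its own, and the sources do not say whether reads were counted by strand.

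The sensors did not follow the chaperones. As an excess over all genes their median log2 difference was -0.203 in shTopors 1 and -0.110 in shTopors 2. Ern1, the gene of IRE1 alpha, was at 21.4 and 20.8 TPM in the control libraries, against 13.8 and 14.5 TPM in shTopors 1 and 2, so its 2 libraries in each group were close and the groups did not overlap (adjusted p = 0.388 in limma's test). Xbp1, whose total transcript is counted here with no separation of its spliced form, was at 184 and 221 TPM in the control libraries, against 173 and 144 TPM in shTopors 1 and 2. Eif2ak3, which encodes PERK, was at 43.7 and 52.5 TPM in the control libraries, against 24.0 TPM in shTopors 1 and 46.4 TPM in shTopors 2. Only shTopors 1 was outside the controls. Its log2 difference without shTopors 2 was -0.97, with an adjusted p = 0.0369, against 0.515 with all libraries and up to 0.996 over the alternatives. Atf6 was at 18.8 and 24.6 TPM in the control libraries, against 22.8 TPM in shTopors 1 and 30.7 TPM in shTopors 2, the only sensor with a library above both controls.

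Among the ERAD genes, Herpud1 and Syvn1 were lower in both knockdown libraries. Syvn1, the HRD1 ubiquitin ligase that passes misfolded proteins to the proteasome, was at 47.0 and 44.0 TPM in the control libraries, against 24.3 and 30.9 TPM in shTopors 1 and 2. Herpud1, a membrane partner of that ligase, was at 193 and 293 TPM in the control libraries, against 131 and 152 TPM in shTopors 1 and 2. Neither passed (adjusted p = 0.293 and 0.290 in limma's test), and Herpud1 passed without shTopors 2, with a log2 difference of -0.85 and an adjusted p = 0.0419, against up to 0.996 over the alternatives. Sel1l, the adaptor that stabilises HRD1, was at 40.8 and 46.2 TPM in the control libraries, against 39.7 TPM in shTopors 1 and 49.8 TPM in shTopors 2. Edem1, a mannosidase-like protein that marks glycoproteins for removal, was at 59.9 and 69.9 TPM in the control libraries, against 71.3 TPM in shTopors 1 and 57.2 TPM in shTopors 2. Both stayed near the controls, and Syvn1 shares exonic bases with Mrpl49 on the opposite strand.

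Of the 9 genes of the ATF4 arm, 6 were below both controls in both knockdown libraries, where 35.2% of all genes were, and Asns was above both, where 14.6% were. As an excess over all genes, their median log2 difference was -0.399 in shTopors 1 and -0.810 in shTopors 2. Over both libraries it was -0.674, the lowest of the 5 lists, with 8 of the 9 genes below the median of all genes. No gene passed the threshold, and Trib3 had the smallest adjusted p of all 36, at 0.231 in limma's test.

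Sites for ATF4 with C/EBP factors (CARE) were searched as TGATGNAA on both strands of the same promoters. They were found for 4 of 9 genes of the ATF4 arm (Asns, Chac1, Nupr1 and Trib3) and for Herpud1, against 3.97% of all promoters. Here too genes are set against single promoters. Herpud1 also held the second type of ER stress element (ERSE-II), searched as ATTGG, 1 base of any kind and CCACG, and found in 0.0365% of all promoters. Dnajb11 held an ERSE-II after its start. The XBP1 site TGACGTGG, in 0.676% of all promoters, was found in none of the 33. The stretches below, 5′ to 3′ along each gene with these elements in capitals, are from Asns (chr6:7693220-7693237, minus strand), Chac1 (chr2:119351037-119351068, plus), Nupr1 (chr7:126625568-126625585, minus) and Herpud1 (chr8:94386305-94386399, plus). They are shown with the direction of these genes known. Of the 5 genes with a CARE, 4 were below both controls in both knockdown libraries, where 35.2% of all genes were. Asns was above both, where 14.6% of all genes were. Trib3, among the 4, has its site after the start and is not shown. In these stretches a site on the opposite strand reads TTGCATCA. The sites of Asns and Nupr1 lie inside their GENCODE gene models.
Asns: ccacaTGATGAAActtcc
Chac1: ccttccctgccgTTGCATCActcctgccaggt
Nupr1: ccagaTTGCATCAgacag
Herpud1: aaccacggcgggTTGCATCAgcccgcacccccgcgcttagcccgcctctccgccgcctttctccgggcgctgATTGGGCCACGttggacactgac

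**Figure D2:**
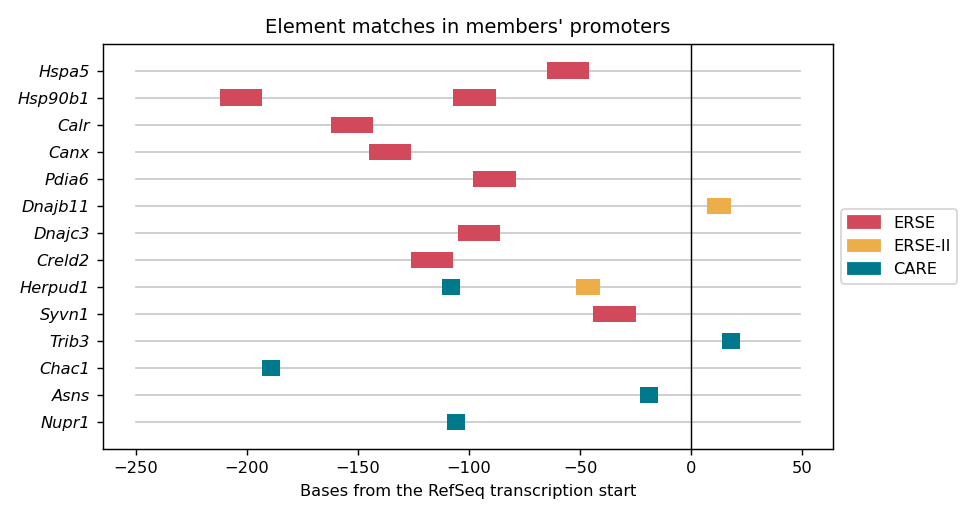
Position of each element match in the promoters of the 14 genes that hold any (x axis, bases from the RefSeq start, negative before it; each grey line is 1 promoter). The ER stress elements lie before the start in the 8 genes that hold them, and the ATF4 site of Trib3 and the ERSE-II of Dnajb11 lie after it.

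Atf4 mRNA, which is controlled mainly in translation, was at 247 and 265 TPM in the control libraries, against 169 TPM in shTopors 1 and 219 TPM in shTopors 2. Atf5 (chr7:44812256-44816658, minus strand), a related factor with the same kind of translational control, was at 61.1 and 65.0 TPM in the control libraries, against 36.3 TPM in shTopors 1 and 12.2 TPM in shTopors 2. Ddit3, which encodes CHOP, was at 61.4 and 60.4 TPM in the control libraries, against 27.9 TPM in shTopors 1 and 39.3 TPM in shTopors 2. All 3 factors were below both controls in both libraries, Atf5 mostly in shTopors 2 and Ddit3 mostly in shTopors 1. The log2 difference of Atf5 was -1.53 (SE 0.465, adjusted p = 0.234 in limma's test), the lowest of the 36. Without shTopors 1 it was -2.28 with an adjusted p = 3.31e-07, and over the alternatives this p ranged up to 0.984. For Ddit3 the log2 difference was -0.86 (SE 0.271, adjusted p = 0.244), and without shTopors 2 it was -1.10 with an adjusted p = 0.0147, which ranged up to 0.99 over the alternatives. Ddit3 shares exonic bases with Mars and Atf5 with Nup62, each on the opposite strand.

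Trib3 and Ppp1r15a act as feedback genes of the arm. Trib3, a pseudokinase that restrains ATF4 and CHOP, was at 15.6 and 17.0 TPM in the control libraries, against 8.79 and 7.45 TPM in shTopors 1 and 2, a log2 difference of -0.93 (SE 0.274). Its group means were 16.3 ± 1.02 and 8.12 ± 0.946 TPM (SD, n = 2), so it was low by a similar amount in both libraries, and without shTopors 1 its log2 difference was -1.03 with an adjusted p = 0.0391, against up to 0.996 over the alternatives. Ppp1r15a, which encodes GADD34, the subunit that directs dephosphorylation of eIF2, was at 13.5 and 50.5 TPM in the control libraries, against 14.7 TPM in shTopors 1 and 9.81 TPM in shTopors 2. Its groups overlapped because shCtrl 1 was as low as shTopors 1. Without shTopors 1 its log2 difference was -1.34 with an adjusted p = 0.0147, and over all alternatives its log2 difference ranged from -1.98 to -0.15 and its adjusted p from 0.0147 to 0.996.

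Chac1, which degrades glutathione, was at 12.7 and 15.4 TPM in the control libraries, against 11.2 TPM in shTopors 1 and 6.69 TPM in shTopors 2. Nupr1, a small stress-induced chromatin protein with the lowest control mean of the 36, was at 10.9 and 8.32 TPM in the control libraries, against 7.62 TPM in shTopors 1 and 2.65 TPM in shTopors 2. In both, shTopors 2 was further from the controls. Without shTopors 1 Nupr1 had a log2 difference of -1.53 and an adjusted p = 0.00126, against 0.387 with all libraries and up to 0.996 over the alternatives. Cebpg, a partner of ATF4 in binding to DNA, was at 40.5 and 53.7 TPM in the control libraries, against 31.7 TPM in shTopors 1 and 42.4 TPM in shTopors 2, so its groups overlapped. Asns, the asparagine synthetase gene, was the exception of the arm, at 143 and 188 TPM in shCtrl and at 218 TPM in both knockdown libraries (218.4 and 217.8). Its log2 difference was 0.41 (SE 0.236, adjusted p = 0.451 in limma's test).

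The serine and one-carbon enzymes stood above the controls in shTopors 1 and, but for Psph, below them in shTopors 2. As an excess over all genes, their median log2 difference was 0.765 in shTopors 1 and -0.208 in shTopors 2. All 5 were above both controls in shTopors 1, where 28.9% of all genes were, and 4 were below both in shTopors 2, where 50.8% were. The part of the marker differences given above in this result was not tested either. Phgdh, the first enzyme of serine synthesis, was at 376 and 367 TPM in the control libraries, against 591 TPM in shTopors 1 and 264 TPM in shTopors 2. Psat1 (chr19:15904678-15947337, minus strand), the aminotransferase that follows it, was at 198 and 229 TPM in the control libraries, against 317 TPM in shTopors 1 and 99.7 TPM in shTopors 2. Psat1 was the member with the greatest difference between the knockdown libraries, 3.18-fold. Its log2 difference was -0.26 with all libraries (adjusted p = 0.818 in limma's test) and -1.09 without shTopors 1 (adjusted p = 0.00952), and the adjusted p ranged up to 0.996 over the alternatives. Without shTopors 2 it was 0.57.

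Psph, the phosphatase that ends serine synthesis, was at 62.4 and 56.2 TPM in the control libraries, against 103 TPM in shTopors 1 and 67.7 TPM in shTopors 2. Both knockdown libraries lay above the controls. It shares 452 exonic bases with Cct6a on the opposite strand, which was at a mean of 245 TPM. Shmt2, which moves a one-carbon unit from serine to folate in mitochondria, was at 48.4 and 50.03 TPM in the control libraries, against 69.8 TPM in shTopors 1 and 42.3 TPM in shTopors 2. Mthfd2, the next mitochondrial enzyme, was at 66.1 and 70.6 TPM in the control libraries, against 70.9 TPM in shTopors 1 and 52.9 TPM in shTopors 2. Mthfd2 was thus above the control range by less than 1 TPM in shTopors 1, and below that range in shTopors 2.

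**Figure D3:**
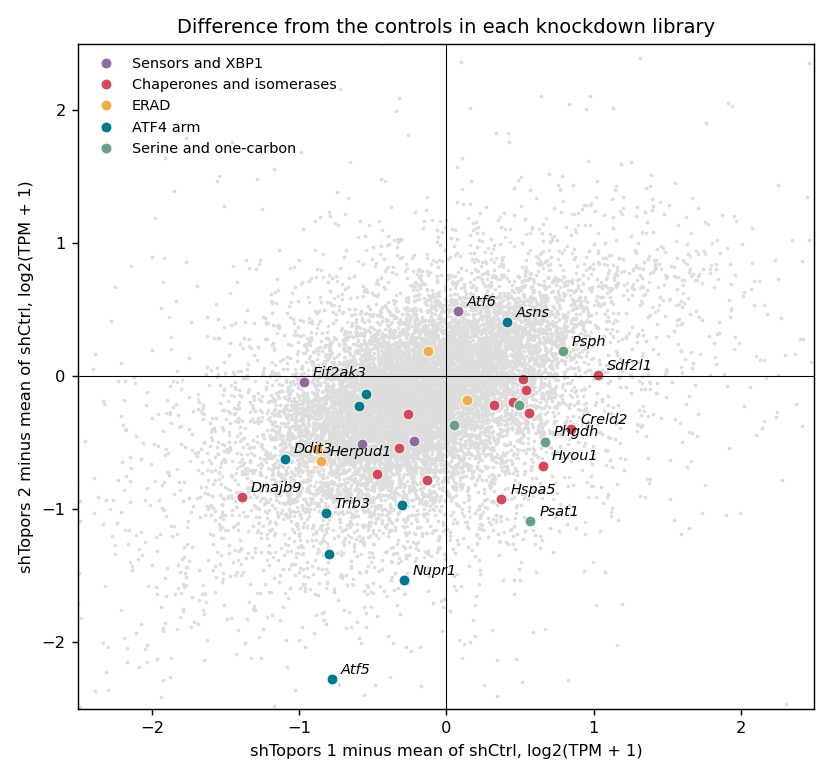
Log2(TPM + 1) of shTopors 1 (x axis) and of shTopors 2 (y axis), each minus the mean of the 2 shCtrl libraries. Coloured points are the 36 genes by list and grey points all tested genes, of which 135 lie outside the axes. At lower right lie 8 of 14 chaperone genes and 4 of 5 serine genes, while 5 chaperone genes and 8 of 9 ATF4-arm genes lie at lower left, with Atf5 lowest. Sdf2l1, Psph, Asns and Atf6 lie at upper right. The medians of all tested genes were -0.194 on the x axis and -0.155 on the y axis. The quadrants are drawn around 0, so all genes were themselves shifted toward the lower left. Both axes share the controls.

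When shTopors 1 was left out, 6 of the 36 passed the threshold, all lower (Atf5, Nupr1, Psat1, Ppp1r15a, Hspa5 and Trib3), and 8.55% of all genes passed. With shTopors 2 left out, 5 passed, Sdf2l1 as higher and Dnajb9, Ddit3, Eif2ak3 and Herpud1 as lower, and 14.9% of all genes passed. Without shTopors 2 the share of the 36 that passed was near that of all genes, so these calls do not set the members apart. In these fits the lone library is assumed to vary like the controls, so they describe 1 library each. No gene was in both sets.

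Further genes of these pathways were examined as lists. Among 43 tested ER folding, translocation and ERAD genes outside the 36, 5 (Derl2, P4hb, Rrbp1, Sec61b and Ssr4, named after their values were known) were above both controls in shTopors 1 and below both in shTopors 2, or 11.6%, close to the 9.27% of all genes. Their median excess was 0.215 in shTopors 1 and 0.000867 in shTopors 2. P4hb, the most abundant of them and a disulfide isomerase, was at 912 and 997 TPM in the control libraries, against 1148 TPM in shTopors 1 and 728 TPM in shTopors 2. Ppib, an ER prolyl isomerase, was at 607.5 and 686 TPM in the control libraries, against 851 TPM in shTopors 1 and 721 TPM in shTopors 2. The translocon gene Sec61a1 was at 513 and 622 TPM in the control libraries, against 417 and 419 TPM in shTopors 1 and 2. None of these 43 passed the threshold in limma's test. At an unadjusted p under 0.05, Sec24d was the 1 gene higher.

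Of 29 other tested genes induced through ATF4, 10 were below both controls in both knockdown libraries, 34.5%, near the 35.2% of all genes. Only 3 (Cth, Slc1a4 and Xpot) were above both controls in both libraries, 10.3% against 14.6% of all genes. Above both controls in shTopors 1 and below both in shTopors 2 were 6 of the 29, or 20.7%, against 9.27% of all genes. Their median excess was 0.170 in shTopors 1 and -0.162 in shTopors 2. Gars and Nars, tRNA synthetase genes among the most abundant, were at 435 and 471 TPM and at 231 and 261 TPM in shCtrl. In shTopors 1 and 2 they were at 454 and 467 TPM and at 232 and 222.5 TPM. Gars lay between the controls in both, and Nars lay just below them in shTopors 2. Sqstm1, the autophagy receptor p62, was at 503 and 466 TPM in the control libraries, against 351 and 348 TPM in shTopors 1 and 2. None of the 29 passed the threshold, while 7 were lower at an unadjusted p under 0.05 and none was higher, where 10.7% and 3.98% of all genes were.

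**Figure D4:**
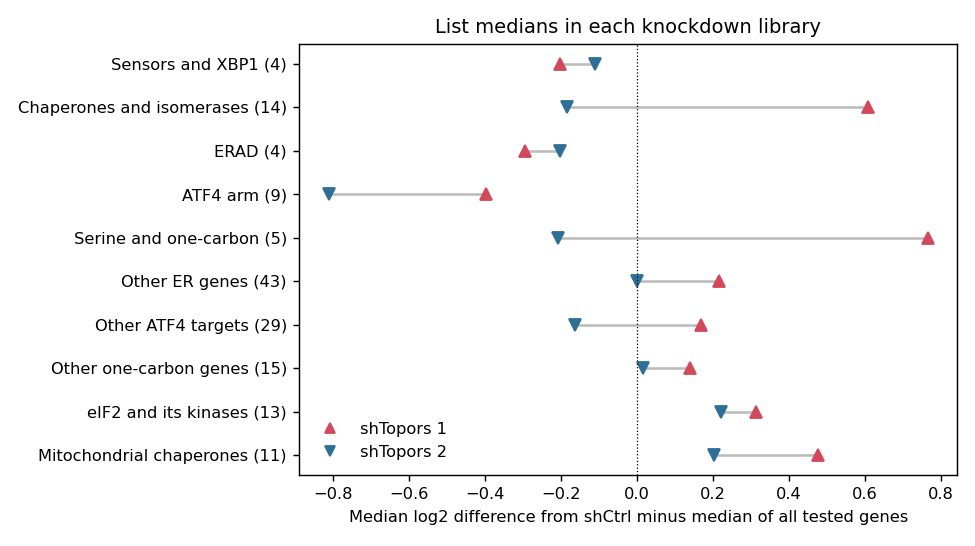
Median log2 difference from the mean of the shCtrl libraries, minus the median of all tested genes (x axis), for each list in shTopors 1 (upward triangles) and shTopors 2 (downward triangles), with the number of tested genes in parentheses. The chaperone and serine lists are furthest to the right in shTopors 1, at 0.607 and 0.765, and the ATF4 arm is furthest to the left in both.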

How the data were processed

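The authors deposited 1 table of TPM per gene, with 1 column per library. HISAT2, HTSeq, DESeq2 and StringTie, with mm10, are listed in the submitters' processing notes without versions or roles, and no source used here says which program wrote the TPM. For 3 identifiers on 2 rows, values were summed. Log2(TPM + 1) was tested over genes averaging 1 TPM or more. The test was limma 3.58.1 (R 4.3.3), trend by mean expression, no covariate, and p-values were adjusted by Benjamini-Hochberg over all genes tested and called under 0.05. A fold on this scale understates changes of low genes. Each knockdown library was also set against the mean of the controls, with no test. The members and lists were chosen with earlier results of these data known. All 36 members are named, with any called gene, otherwise the 3 of highest mean TPM, of each related list and the 2 highest of each marker list above the filter, and other names were chosen after seeing values. Promoters are RefSeq's, and gene models GENCODE M21 (mm10). Exonic bases were shared with another gene by 14 members. Python 3.11.15, numpy 2.4.6, pandas 2.3.3 and matplotlib 3.10.9 were used. Alternatives were other pseudocounts, filters, scalings and variance settings, blocking by replicate number, and leaving out each library in turn. Counts by list under these were added after seeing the data. Some genes of the related and marker lists are not reported here.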

Additional observations from a re-analysis of the deposited data

How the results depend on the processing

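No member passed an adjusted p of 0.05 under any of the 9 alternatives that kept all 4 libraries, the replicate block among them, where the count was 0 and the smallest adjusted p was 0.139, for Dnajb9. Libraries of different groups share only a number (same-numbered deviations correlated at 0.199 across genes). With 1 library left out the count ranged from 0 to 6. The log2 difference changed sign for 15 members under some alternative, and for 3 of them (Hyou1, Edem1 and Mthfd2) with all libraries, after other scaling (to 0.179, 0.167 and 0.032 by median of ratios). Scaling by median of ratios and by quantiles moved the median of all genes from -0.183 to -0.016 and -0.006. The count of chaperone genes above both controls in shTopors 1 and below both in shTopors 2 was 6, and from 4 (median of ratios) to 9 (without shCtrl 1) over the alternatives, where the share of all genes was 9.27%, 10.2% and 14.6%. That of the serine genes was 4, and 3 or 4. The 6 ATF4-arm genes below both controls in both libraries became 5 after either scaling and 8 without shCtrl 1, while the share of all genes went from 35.2% to 24.0% (median of ratios), 22.7% (quantiles) and 54.3%. The median excess of the 22 ER genes in shTopors 1 was 0.170, and 0.108 with a pseudocount of 5, 0.031 with no filter, 0.109 after quantile normalization and from 0.111 (without shCtrl 1) to 0.352 (without shCtrl 2) with 1 library left out. In shTopors 2 it was -0.184, and -0.292 with no filter, -0.243 after quantile normalization. For the 14 ATF4 and serine genes it was -0.100 in shTopors 1, -0.239 with no filter and from -0.098 to 0.064 with 1 library left out, the sign changing without shCtrl 2. In shTopors 2 it was -0.399, -0.508 with no filter, -0.479 after quantile normalization and from -0.406 to -0.301 with 1 library left out. Over both knockdown libraries the median excess of the ER genes was 0.037, and it was -0.179 without shTopors 1 and 0.173 without shTopors 2. The medians of single lists moved as well. For the chaperone list in shTopors 1 it was 0.607, but 0.468 with no filter and 0.332 after quantile normalization. For the serine list in shTopors 1 it was 0.765, and 0.578 after quantile normalization. For the ATF4 arm in shTopors 2 it was -0.81, and -0.919 with no filter and -0.594 with a pseudocount of 5. Without a filter the median is taken over 24900 genes, the added ones under a mean of 1 TPM. The cause of the other shifts was not tested. Depth is unknown, so counting error could not be given.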

Other observations

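Mitochondrial chaperone and protease genes, a list next to the ATF5 branch of the stress response, stood above the median of all genes in both knockdown libraries. Their median excess over all genes was 0.477 in shTopors 1 and 0.203 in shTopors 2, and 10 of 11 had a log2 difference above the all-gene median. Hspd1, which encodes HSP60, was at 218.5 and 300.4 TPM in the control libraries, against 408 TPM in shTopors 1 and 369 TPM in shTopors 2. Hspe1, which encodes its partner HSP10, was at 238 and 287 TPM in the control libraries, against 368 and 393 TPM in shTopors 1 and 2. Hspa9, the mitochondrial HSP70 gene, was at 305 and 366 TPM in the control libraries, against 347 and 294 TPM in shTopors 1 and 2. None passed (adjusted p = 0.322 for Hspd1 and 0.321 for Hspe1 in limma's test).

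Among 15 other serine, glycine and one-carbon enzymes, only Mthfd2l was above both controls in shTopors 1 and below both in shTopors 2. This is 6.67%, against 9.27% of all genes, and none of the 15 passed the threshold. Ahcy, which hydrolyses S-adenosylhomocysteine, was at 217 and 347 TPM in the control libraries, against 185 TPM in shTopors 1 and 51.4 TPM in shTopors 2 (adjusted p = 0.303 in limma's test). Gldc, the glycine cleavage decarboxylase gene, was at 474 and 545 TPM in the control libraries, against 491 TPM in shTopors 1 and 377 TPM in shTopors 2. Mat2a, which makes S-adenosylmethionine, was at 117 and 164 TPM in the controls and lower in both knockdown libraries, at 90.9 and 114 TPM. Another list held 13 genes of eIF2, its exchange factor, kinases and phosphatase. None was above both controls in shTopors 1 and below both in shTopors 2, where 9.27% of all genes were. Below both controls in both libraries were 4 of the 13, or 30.8%, against 35.2% of all genes. Ppp1r15b, the constitutive counterpart of Ppp1r15a, was at 79.9 and 93.2 TPM in the control libraries, against 69.5 and 62.3 TPM in shTopors 1 and 2. Eif2s2, an eIF2 subunit gene, had 68.3 and 91.0 TPM in the controls and 61.2 and 65.9 TPM in shTopors 1 and 2. Eif2b5, an exchange factor subunit gene, had 56.8 and 60.6 TPM in the controls and 80.2 and 61.3 TPM in shTopors 1 and 2.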
